A study of Mus musculus with 20 samples.

Results

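The genes described here are 10 transcripts of the insulin signalling pathway and of the genes that the transcription factor FOXO1 governs in liver: Insr, Irs1, Irs2, Pik3r1, Pik3ip1, Akt2, Foxo1, Igfbp1, Igfbp2 and Trib1. They were taken by symbol from a table of read counts on 48440 genes, in which each symbol had 1 row, and all 10 were among the 16071 genes left after edgeR's removal of low counts. The table holds the livers of 20 wild-type female C57BL/6 mice, 5 in each of 4 groups. The labels give an age of 8 weeks for the mice entering the experiments, and the livers were taken at the end of week 5 of treatment. Mice received corticosterone (CORT), the glucocorticoid of rodents, or its vehicle, and were also injected intraperitoneally with a monoclonal antibody against acyl-CoA-binding protein (αACBP) or with an IgG2a isotype control. The groups are called Isotype + Vehicle, αACBP + Vehicle, Isotype + CORT and αACBP + CORT, so that every mouse was injected with an antibody and no liver is from an uninjected animal. The comparisons ask what CORT did to these transcripts, and whether neutralizing ACBP altered that.

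In the liver, insulin binds its receptor, which phosphorylates the substrates IRS1 and IRS2. These recruit phosphoinositide 3-kinase (PI3K) and thereby activate the kinase AKT2, which phosphorylates FOXO1 and drives it out of the nucleus. When insulin is low, nuclear FOXO1 raises the transcription of its targets, of which Igfbp1 and Irs2 are textbook examples, and glucocorticoids are known to oppose insulin at several of these steps.

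Libraries held between 14934926 and 20299999 counts on genes. Levels are given as CPM, counts scaled to a common library size after TMM normalization (trimmed mean of M values), and 3 counts correspond to between 0.145 and 0.205 CPM, a floor that covers counting error only. Every pair of livers in a group differed by more than counting noise. The liver label was met by the hepatocyte markers (9 of 10 found, summed level between 40438 and 144586 CPM). Fkbp5, a glucocorticoid-induced chaperone, was at 39.3 ± 9.87 CPM in Isotype + Vehicle, 128 ± 40.0 CPM in Isotype + CORT, 63.0 ± 24.2 CPM in αACBP + Vehicle and 76.8 ± 19.8 CPM in αACBP + CORT (SD, n = 5 each). It was called higher with CORT under isotype (log2 fold change 1.70, adjusted p = 0.000722) but not under the antibody (0.28, adjusted p = 0.720, interaction adjusted p = 0.0934). Of 12 listed glucocorticoid-responsive genes, 2 were called higher and 0 lower with CORT under isotype, with 6 of 12 above 0 and a median of -0.04, and 0 were called with CORT under the antibody. With the antibody under vehicle, 2 of the 12, Mt1 and Mt2, were called higher and 10 were above 0. The summed level of the list had a median of 2535 CPM in Isotype + Vehicle and 4546 CPM in αACBP + Vehicle. The vehicle levels that CORT is compared with thus differed between isotype and antibody. The liver of αACBP + Vehicle replicate 5 stood apart, with the lowest median correlation with its group (0.873) and the highest normalization factor (1.29). In whole liver, fewer cells of a type and less RNA per cell cannot be told apart.

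Promoter sequence is shown for Igfbp1 and Irs2, the textbook FOXO1 targets, and for Igfbp2, the only member that passed the test in any comparison. Each run is the 250 bases before the annotated start, 5′ to 3′ on the strand of the gene (RefSeq, GRCm38.p6), and capitals mark the core of the insulin response element, CAAAACA, searched on both strands and therefore also shown as its reverse complement TGTTTTG. The windows are chr11:7197537-7197786 (plus strand) for Igfbp1, chr8:11008930-11009179 (minus strand) for Irs2 and chr1:72824230-72824479 (plus strand) for Igfbp2, whose gene runs from there to base 72852474 of chromosome 1.
Igfbp1: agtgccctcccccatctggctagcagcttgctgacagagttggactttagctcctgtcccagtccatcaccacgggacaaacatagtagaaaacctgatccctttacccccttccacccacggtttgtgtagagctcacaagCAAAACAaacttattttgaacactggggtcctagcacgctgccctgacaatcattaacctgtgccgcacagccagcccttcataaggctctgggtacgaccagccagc
Irs2: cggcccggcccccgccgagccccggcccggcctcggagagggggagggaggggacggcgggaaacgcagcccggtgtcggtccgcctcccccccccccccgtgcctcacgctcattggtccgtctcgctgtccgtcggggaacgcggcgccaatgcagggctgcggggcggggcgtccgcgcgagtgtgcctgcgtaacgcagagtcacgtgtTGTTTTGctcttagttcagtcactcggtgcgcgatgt
Igfbp2: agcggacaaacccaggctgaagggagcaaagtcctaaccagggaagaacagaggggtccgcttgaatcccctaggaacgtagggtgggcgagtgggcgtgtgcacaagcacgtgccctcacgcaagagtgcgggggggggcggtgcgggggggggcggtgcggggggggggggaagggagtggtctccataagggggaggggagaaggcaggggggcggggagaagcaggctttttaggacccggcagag
Windows were found for 8 of the 10 genes, not for Insr and Trib1. The core lay at bases 108 to 102 before the start of Igfbp1 and at bases 37 to 31 before that of Irs2. Irs1 held it at 2 places, starting 111 and 32 bases before the start, so that 3 of 8 members had a match, against 5.56% of 32851 promoters of the same length. GTAAACA, the DAF-16 family form of FOXO site, was in 0 of the 8 (3.17% of all promoters) and the palindromic glucocorticoid response element in 0 of the 8 (0.00913% of all). Igfbp2 held none of the 3 motifs in its windows. A match describes these letters and is not a measured binding site. Members were picked as insulin and FOXO1 genes and counted on their first window only, while the 32851 promoters hold all windows of a gene. The shares are therefore no test of enrichment.

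Igfbp2, which encodes a secreted binding protein for insulin-like growth factors, was the member that fell with CORT. Isotype + Vehicle livers had 487, 459, 837, 259.7 and 348 CPM of Igfbp2. Isotype + CORT livers had 268, 153, 151, 191 and 81.7 CPM. Of the latter, 4 lay below every vehicle liver, and replicate 1, at 268 CPM, lay just above the lowest of them, so that the groups overlapped by a single liver. The group means were 478 ± 220 and 169 ± 68.0 CPM (SD, n = 5 each), a log2 fold change of -1.50 with a standard error of 0.325 (adjusted p = 0.0115, edgeR's quasi-likelihood test). A gene was called where its adjusted p was at most 0.05, which held for 3.2% of all genes tested in this comparison, and Igfbp2 ranked 179 of 16071 by p. A two-sided exact permutation test on log2 CPM gave p = 0.0159, unadjusted and 1 of 50 such tests, where 0.00794 is the smallest p that 5 against 5 livers can give. The call held when any 1 of the 20 livers was left out (log2 fold change between -1.74 and -1.21, adjusted p between 0.00593 and 0.0345).

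Under the antibody, Igfbp2 levels with CORT lay nearer to those of the vehicle groups. The αACBP + CORT livers had 407, 430.4, 194, 416 and 474 CPM of Igfbp2. In αACBP + Vehicle the values were 330.3, 415, 713, 522 and 299 CPM. Except for replicate 3, at 194 CPM, the αACBP + CORT livers were above every Isotype + CORT liver. Their mean was 384 ± 109 CPM (SD, n = 5), a log2 difference of 1.18 from Isotype + CORT with a standard error of 0.322, which missed the threshold (adjusted p = 0.0785, edgeR's quasi-likelihood test; exact permutation p = 0.0159, unadjusted and two-sided). This call depended on the method and on single livers. DESeq2's Wald test gave an adjusted p of 0.00728 and limma's voom 0.0446 for Igfbp2, and edgeR's test gave 0.0486 without Isotype + Vehicle replicate 3 and 0.206 without αACBP + CORT replicate 5. Without αACBP + CORT replicate 3, the lowest of its group, the log2 difference was 1.35 (adjusted p = 0.0506).

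With CORT under the antibody, Igfbp2 had a log2 fold change of -0.25 (95% interval -0.87 to 0.38), and αACBP + CORT compared with Isotype + Vehicle gave -0.32 (-0.94 to 0.31). The antibody under vehicle gave -0.07 (-0.69 to 0.55). The interaction, which asks whether the CORT effect differed between isotype and antibody, was 1.25 on the log2 scale with a standard error of 0.451 (adjusted p = 0.272, edgeR's quasi-likelihood test), so that a difference between the CORT effects on Igfbp2 was not established over all genes. The αACBP + CORT mean lay between those of Isotype + CORT and Isotype + Vehicle, and its livers overlapped with both.

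Beside these levels, markers of Kupffer cells and macrophages, the resident phagocytes of the liver, also moved. Their summed level lay between 391.7 and 770 CPM in Isotype + Vehicle, 147 and 399 CPM in Isotype + CORT, 516 and 876 CPM in αACBP + Vehicle and 516 and 704 CPM in αACBP + CORT. Of 9 such markers, all detected, 6 were called lower with CORT under isotype and 3 were called higher with the antibody under CORT. Summed hepatocyte markers had medians of 116100, 125589, 89639 and 99182 CPM in the same order of groups, and 1 of 9, Apob, was called higher with CORT. The part of either cell type in the Igfbp2 levels was not tested.

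**Figure D1:**
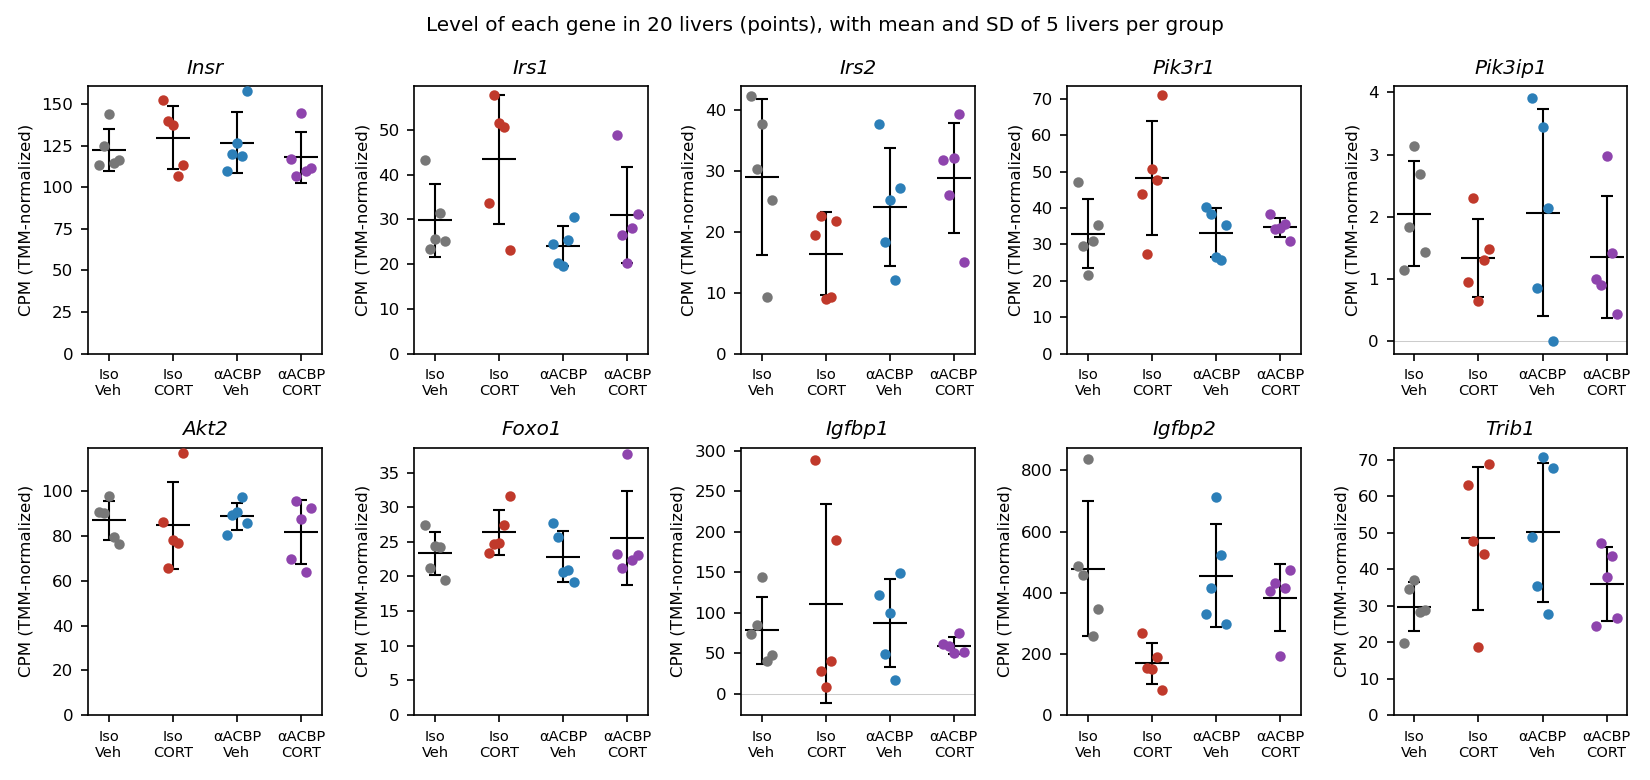
Levels of the 10 genes in single livers in TMM-normalized CPM (vertical axes start at or just below 0), with points for the 5 livers of each of the 4 groups and bars for the mean and SD. For Igfbp2, 4 of the 5 Isotype + CORT livers lie below all Isotype + Vehicle livers, while Insr and Akt2 sit at like levels in every group.

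The receptor and the kinase of the pathway varied little. Insr, the insulin receptor, lay between 107 and 158 CPM over the 20 livers, and its biological coefficient of variation of 0.186 was at percentile 2.73 of all genes tested. Its group means were 122.5 CPM in Isotype + Vehicle, 129.8 CPM in Isotype + CORT, 127 CPM in αACBP + Vehicle and 118 CPM in αACBP + CORT, and the livers of all groups overlapped. The 95% interval of the CORT effect on Insr under isotype was -0.21 to 0.38 on the log2 scale. Akt2, the main hepatic AKT kinase of insulin action, ranged from 63.8 to 117 CPM with a CORT effect of -0.04 (-0.35 to 0.27), and Foxo1 from 19.3 to 37.7 CPM with 0.18 (-0.18 to 0.53). The highest Foxo1 value, 37.7 CPM, was αACBP + CORT replicate 3, and the other 4 livers of that group held 21.2 to 23.2 CPM. The lowest adjusted p of Insr, Akt2 and Foxo1 in any of the 6 comparisons was 0.743.

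Per length, these members differed widely in level. In Isotype + Vehicle, means per kilobase of annotated exon were 230 CPM for Igfbp2 and 46.1 CPM for Igfbp1, against 8.88 CPM for Insr, 6.69 CPM for Akt2, 4.71 CPM for Trib1, 3.93 CPM for Irs2, 3.19 CPM for Irs1, 3.08 CPM for Pik3r1, 2.52 CPM for Foxo1 and 0.393 CPM for Pik3ip1. On the same scale Akt2 was above Akt1 (4.96 CPM), and Insr above Igf1r, the receptor for IGF1 (0.227 CPM). Akt1 shares 52% of its exon length with genes on the opposite strand and Akt2 0%, which limits the comparison of these kinases. Foxo1 was the lowest of 3 FOXO genes, next to Foxo3 at 3.55 CPM and Foxo4 at 6.28 CPM. Irs2, Irs1 and Pik3r1 were neighbours whose means differed by less than 1 SD.

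The receptor substrates Irs1 and Irs2 had CORT effects of opposite sign under isotype, and neither passed the test over all genes. Irs2, which docks PI3K to the receptor and is itself a FOXO1 target, held 42.2, 30.3, 37.7, 9.27 and 25.2 CPM in Isotype + Vehicle. Isotype + CORT livers held 19.4, 22.6, 8.92, 9.26 and 21.7 CPM of it. All 5 CORT values were below those of 4 vehicle livers, and vehicle replicate 4 was as low as the lowest CORT livers. The log2 fold change was -0.82 with a standard error of 0.366 (adjusted p = 0.267, edgeR's quasi-likelihood test). With the antibody under CORT, Irs2 was 31.7, 25.9, 32.2, 39.2 and 14.97 CPM, so that 4 of 5 livers exceeded every Isotype + CORT liver. The log2 difference was 0.81 with a standard error of 0.367 (adjusted p = 0.358). Its αACBP + Vehicle livers, at 37.7, 18.3, 25.2, 12.1 and 27.2 CPM, overlapped with all other groups. The interaction for Irs2 was 1.08 with a standard error of 0.515 (adjusted p = 0.469).

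Irs1, the other substrate, was at 43.4, 23.4, 25.7, 31.6 and 25.1 CPM in Isotype + Vehicle. In Isotype + CORT it was at 33.8, 58.0, 51.7, 50.8 and 23.3 CPM, of which 3 livers were above all vehicle livers and 1 below them. The log2 fold change of Irs1 was 0.55 with a standard error of 0.238 (adjusted p = 0.239, edgeR's quasi-likelihood test). With the antibody under CORT it held 49.0, 26.6, 20.3, 28.1 and 31.3 CPM, a log2 difference of -0.49 (standard error 0.237, adjusted p = 0.399). In αACBP + Vehicle, Irs1 ranged from 19.5 to 30.6 CPM.

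Of the PI3K genes, Pik3r1 encodes the p85α regulatory subunit and Pik3ip1 a membrane protein that inhibits PI3K. Pik3r1 was at 47.3, 29.6, 21.6, 30.9 and 35.4 CPM in Isotype + Vehicle. Isotype + CORT livers held 43.8, 27.4, 50.8, 47.8 and 71.1 CPM of Pik3r1, 3 of them above all vehicle livers. The log2 fold change was 0.55 with a standard error of 0.211 (adjusted p = 0.167, edgeR's quasi-likelihood test). Its αACBP + CORT livers lay closest together of all groups, between 30.9 and 38.3 CPM, with a log2 difference of -0.47 from Isotype + CORT (standard error 0.210, adjusted p = 0.344). Without CORT under the antibody, Pik3r1 ranged from 25.7 to 40.4 CPM.

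Pik3ip1 was the lowest of the members, with a mean of 1.70 CPM and values between 0 and 3.91 CPM, or 0 to 70 counts. It had 0 counts in αACBP + Vehicle replicate 5, where 3 counts would be 0.145 CPM, and 23.8% of its exon length is shared with genes on the opposite strand. The interval of its CORT effect under isotype ran from -2.23 to 1.00 on the log2 scale, with a biological coefficient of variation of 0.803. The other members shared at most 8% of their exon length with opposite-strand genes, the 8% being that of Irs2, and reads from the paired strands cannot be told apart because the strand setting of the counting is not given in the sources used here.

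Igfbp1, the acute insulin-repressed binding protein, was the most uneven of the well-measured members. Isotype + CORT livers held 289, 28.6, 8.92, 40.9 and 189 CPM of Igfbp1. Isotype + Vehicle livers held 74.2, 84.4, 145, 40.0 and 48.3 CPM. Replicates 1 and 5 with CORT exceeded every vehicle liver and replicates 2 and 3 were below every one. The coefficient of variation was 109.9% in Isotype + CORT, 52.7% in Isotype + Vehicle and 17.1% in αACBP + CORT, whose livers held 61.1, 59.2, 50.5, 75.7 and 51.2 CPM. αACBP + Vehicle livers held 122, 49.1, 99.6, 17.5 and 149 CPM. The fitted CORT effect on Igfbp1 under isotype was 0.51 with a standard error of 0.725 (adjusted p = 0.841, edgeR's quasi-likelihood test), while the mean of log2 CPM was 0.32 lower with CORT, and without Isotype + CORT replicate 1 the fitted value was -0.25. With the antibody under CORT the fitted value was -0.90 (-2.33 to 0.53) and the difference of mean log2 CPM was 0.06. The fits therefore gave Igfbp1 no settled direction.

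Trib1 encodes a pseudokinase that limits hepatic lipogenesis. Its Isotype + Vehicle livers held 19.8, 34.7, 37.2, 28.2 and 28.9 CPM. In Isotype + CORT, Trib1 was at 63.1, 47.8, 18.7, 44.2 and 69.0 CPM, with 4 livers above all vehicle livers and replicate 3 below all of them. The log2 fold change was 0.71 with a standard error of 0.292 (adjusted p = 0.215, edgeR's quasi-likelihood test). Leaving out Isotype + CORT replicate 3, the low liver, gave 0.91 and an adjusted p of 0.0367.

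αACBP + Vehicle livers held 48.9, 35.4, 70.8, 27.8 and 67.8 CPM of Trib1. Of these, 3 exceeded every Isotype + Vehicle liver, a log2 difference of 0.75 with a standard error of 0.292 (adjusted p = 0.132). With both treatments the values were 24.4, 47.3, 38.0, 43.7 and 26.7 CPM. The interaction for Trib1 was -1.18 with a standard error of 0.412 (adjusted p = 0.249, edgeR's quasi-likelihood test). An index of clock genes (mean z score of Arntl, Npas2 and Clock minus that of Dbp, Nr1d1, Per3 and Ciart) lay between -3.45 and -0.907 in αACBP + Vehicle and between 0.677 and 1.85 in Isotype + Vehicle, without overlap. It lay between -1.84 and 1.26 in Isotype + CORT and between -1.45 and 2.22 in αACBP + CORT. Arntl, Dbp and Ciart, which enter it, were themselves called with the antibody under vehicle. The index thus nearly follows the groups under vehicle, so a call lost with it as a covariate does not tell antibody and clock genes apart. αACBP + Vehicle also enters CORT under the antibody and the interaction. With that index as a covariate, Trib1 had an antibody effect under vehicle of 0.52 (adjusted p = 0.847), and the part of the clock genes in the Trib1 levels was not tested.

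**Figure D2:**
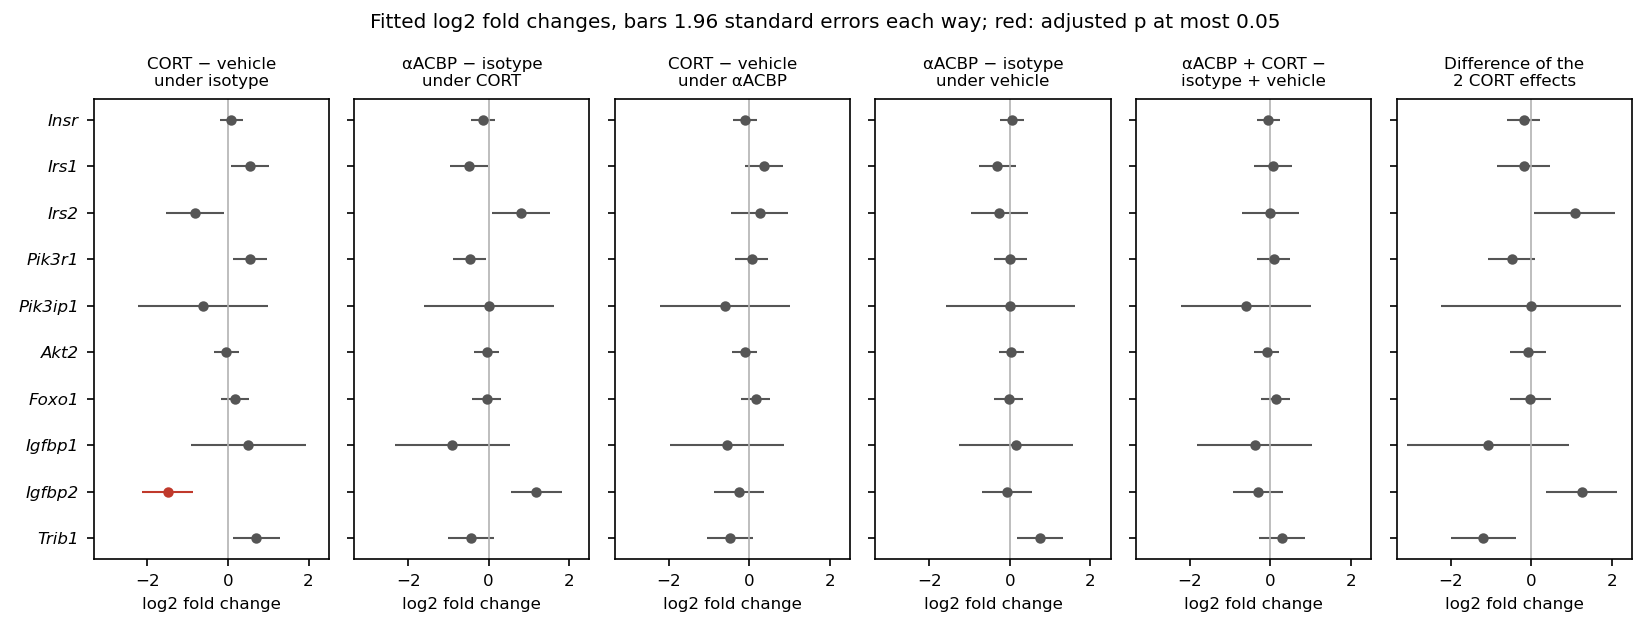
Fitted log2 fold changes (horizontal axes) of the 10 genes in 6 comparisons, 1 panel each, with bars for 95% intervals. The only value with an adjusted p of at most 0.05 is that of Igfbp2 for CORT under isotype, at -1.50.

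Counted over the comparisons, 1 of 10 members was called for CORT under isotype, against 3.2% of all genes tested. The antibody under CORT called 0 of 10, against 0.958% of all genes, CORT under the antibody 0 of 10 against 0.305%, and the antibody under vehicle 0 of 10 against 5.14%. αACBP + CORT compared with Isotype + Vehicle called 0 of 10 against 0.0809%, and the interaction 0 of 10 against 0.143%. With 10 members, shares of this size cannot be set apart from the background. DESeq2's Wald test and voom each called 1 member for CORT under isotype and 1 for αACBP under CORT, and 0 in the other 4 comparisons.

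At an unadjusted p of 0.05 or less, edgeR's test had 5 of 10 members for CORT under isotype against 15.6% of all genes, and 4 of 10 for the antibody under CORT against 12.5%. The 5 were Irs1, Irs2, Pik3r1, Igfbp2 and Trib1, and the 4 were Irs1, Irs2, Pik3r1 and Igfbp2. Both comparisons use the Isotype + CORT livers, and the members were chosen with earlier results of these data known. An excess of members over all genes, in share or in size, is therefore no test of the set. For the antibody under vehicle it was 1 of 10 against 20.6%, for the interaction 3 of 10 against 10.6%, and for the other comparisons 0 of 10 against 12.7% (CORT under the antibody) and 7.59% (both treatments against Isotype + Vehicle). Members had a median size of the log2 fold change, sign ignored, of 0.55 with CORT under isotype (0.31 over all genes), 0.45 with the antibody under CORT (0.29) and 0.06 with the antibody under vehicle (0.37). In 0 of 10 members were the groups without overlap for CORT under isotype, against 5.04% of all genes, and likewise 0 of 10 for the antibody under CORT, against 3.22%.

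The other genes of the pathway were taken from a list of 54, of which 51 were tested. The lists were chosen with earlier results of these data known. With CORT under isotype 0 were called higher and 1 lower (3.2% of all genes called), with the antibody under CORT 1 higher and 0 lower (0.958%). Both calls were Pik3cd, a PI3K catalytic subunit known mainly from leukocytes, with means of 15.1 CPM in Isotype + Vehicle, 4.66 CPM in Isotype + CORT and 14.2 CPM in αACBP + CORT. Its log2 fold changes were -1.70 (adjusted p = 0.00209) and 1.60 (adjusted p = 0.00813, edgeR's quasi-likelihood test). Both calls were kept with each of 20 livers left out, and the second was lost with voom and with only the groups compared. Summed B cell markers (6 of 6 found) and T and NK cell markers (8 of 8 found) were also lower with CORT under isotype, as were the Kupffer cell markers given above. The B cell and the T and NK cell medians were 51.0 and 9.85 CPM in Isotype + Vehicle, 10.4 and 3.01 CPM in Isotype + CORT, and 15.04 and 7.63 CPM in αACBP + CORT. In αACBP + Vehicle they were 48.7 and 9.49 CPM. Summed neutrophil markers (6 of 6 found) had medians of 18.9 CPM in Isotype + Vehicle and 8.62 CPM in Isotype + CORT. Their medians were 19.2 CPM in αACBP + Vehicle and 16.2 CPM in αACBP + CORT. Pik3cd means per kilobase of exon were 1.74 CPM in Isotype + Vehicle and 2.22 CPM in αACBP + Vehicle. The B cell sum stayed low in αACBP + CORT. With the antibody under CORT, 9 of 9 Kupffer cell, 7 of 7 tested T and NK cell, 4 of 6 B cell and 2 of 3 tested neutrophil markers were above 0. The part of these cells in the Pik3cd levels was not tested. The antibody under vehicle called 4 higher and 1 lower: Pik3r2, another PI3K regulatory subunit (0.93), Socs3, a feedback inhibitor (0.88), the kinase Mtor (0.71), its inhibitor Tsc2 (0.62) and, lower, Ceacam1, which promotes insulin clearance (-0.79), with adjusted p between 0.00639 and 0.0491. Over all genes tested, 5.14% were called with the antibody under vehicle. Only the call of Pik3r2 was kept with each of 20 livers left out. The 5 calls became 1 without Isotype + Vehicle replicate 1 or 5 or αACBP + Vehicle replicate 1 or 2, 2 without Isotype + Vehicle replicate 2 or αACBP + Vehicle replicate 5, and 3 without Isotype + CORT replicate 1 or αACBP + CORT replicate 1 or 4, whereas 8 genes were called without Isotype + CORT replicate 5. Tsc2 also lost its call without a filter on low counts and with library sizes computed without the 20 most abundant genes. With the clock index as a covariate the antibody under vehicle called 0 of 16071 genes, these included. That index does not overlap between the groups compared, so this fit cannot separate the antibody from the clock genes. The other 3 comparisons called 0 of 51, where 0.0809% to 0.305% of all genes were called.

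Of 23 tested genes listed as raised by FOXO1, 2 rose and 0 fell with CORT under isotype: Bnip3, a mitophagy receptor (log2 fold change 1.20, adjusted p = 0.00085), and Apoc3, an apolipoprotein that slows triglyceride clearance (0.80, adjusted p = 0.0239). The call of Bnip3 was kept with each of 20 livers left out. That of Apoc3 was lost without Isotype + Vehicle replicate 2, 4 or 5 or Isotype + CORT replicate 1 or 2. Bnip3 was also the only one called with the antibody under CORT, at -0.83 (adjusted p = 0.0326), a call that was lost with voom, with only the groups compared, and without Isotype + CORT replicate 1, 4 or 5 or αACBP + CORT replicate 2, 3, 4 or 5 (adjusted p of up to 0.147). Bnip3 means ran 149.9 CPM in Isotype + Vehicle, 344 CPM in Isotype + CORT, 154 CPM in αACBP + Vehicle and 194 CPM in αACBP + CORT. The genes for gluconeogenesis in the list, G6pc and Pck1, were not called in any comparison. With CORT under the antibody Ccng2 was called higher (1.22), and this was lost without αACBP + Vehicle replicate 3 or 5, without αACBP + CORT replicate 1, 2, 3 or 4, and with the clock index as a covariate. The antibody under vehicle called Pnpla2, the triglyceride lipase ATGL, higher (0.86), and Ccng2 (-1.12), Cited2 (-1.02), Cat (-0.69) and Sod2 (-0.60) lower, none of them with the clock index as a covariate. As for the pathway genes, that fit cannot separate the antibody from the clock genes. Of these calls, those of Pnpla2 and Ccng2 were kept with each of 20 livers left out. Cited2, Cat and Sod2 lost it without Isotype + Vehicle replicate 1, 2 or 5 or αACBP + Vehicle replicate 1 or 5, Cited2 and Sod2 also without αACBP + Vehicle replicate 2, and Sod2 without αACBP + Vehicle replicate 3 or αACBP + CORT replicate 4.

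Of 7 genes listed as lowered by FOXO1 or raised by insulin, 1 rose and 2 fell with CORT under isotype. G0s2, an inhibitor of that lipase, rose by 1.55 (adjusted p = 0.0095), and by 2.11 with CORT under the antibody (adjusted p = 0.0101), the latter not with the clock index as a covariate. The lipogenic genes Acly (-0.96, adjusted p = 0.0140) and Srebf1 (-0.81, adjusted p = 0.0411, edgeR's quasi-likelihood test) fell. Of all genes tested, 3.2% were called with CORT under isotype and 0.305% with CORT under the antibody. In αACBP + CORT compared with Isotype + Vehicle it was 0.0809%. The calls of G0s2 and Acly were kept with each of 20 livers left out. That of Srebf1 was lost with voom, with the clock index as a covariate, and without Isotype + Vehicle replicate 1, 2, 4 or 5 or Isotype + CORT replicate 1, 2 or 5. Acly was also called in αACBP + CORT compared with Isotype + Vehicle, at -1.18 (adjusted p = 0.0320). That call was lost without any 1 of the 5 Isotype + Vehicle livers or without αACBP + CORT replicate 1, 2, 3 or 4 (adjusted p of up to 0.123). The list medians for CORT under isotype were 0.08 for the pathway, 0.21 for the genes raised and 0.34 for those lowered by FOXO1, with 0.00 over all genes tested.

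Other IGF-binding proteins were also called lower with CORT under isotype, but not in every refit. Of 8 further genes of the family (5 binding proteins, Igf1, Igf2 and Igfals, the acid-labile subunit), Igfbp3, the main carrier of IGF1 in blood, was called lower at -1.27 (adjusted p = 0.0282), and Igfbp7, a related secreted protein, at -0.70 (adjusted p = 0.0312, edgeR's quasi-likelihood test). Both calls were lost without Isotype + Vehicle replicate 2, 3 or 5, without Isotype + CORT replicate 2 or 3, and with only the groups compared. That of Igfbp3 was also lost without a filter on low counts, and that of Igfbp7 without Isotype + Vehicle replicate 1 and with the clock index as a covariate. Igfbp3 means were 38.8 CPM in Isotype + Vehicle, 16.1 CPM in Isotype + CORT, 23.5 CPM in αACBP + Vehicle and 17.2 CPM in αACBP + CORT. For Igfbp3 the antibody effect under CORT was 0.09 with a standard error of 0.319, beside 1.18 with a standard error of 0.322 for Igfbp2, and the difference between the genes was not tested. Igfbp7 was also called lower with the antibody under vehicle (-0.85, adjusted p = 0.00936), with each of 20 livers left out but not with the clock index as a covariate. The index cannot be separated from the antibody in that comparison. Markers of stellate cells, the vitamin A-storing cells of the liver, and of endothelial cells moved beside these genes. All 8 stellate markers were lower with CORT under isotype, 1 of them called, and all 8 with the antibody under vehicle, 3 of them called, with summed levels of 194 to 343 CPM in Isotype + Vehicle, 178 to 236 CPM in Isotype + CORT, 158 to 194 CPM in αACBP + Vehicle and 176 to 216 CPM in αACBP + CORT. Of 9 endothelial markers, 8 were lower with CORT under isotype, 1 of them called, and the sums were 271 to 386, 259 to 332, 279 to 401 and 262 to 348 CPM in the same order of groups. The part of these cells in the levels of the binding proteins was not tested. Igfbp4, the most abundant of them per length at 239 CPM per kilobase in Isotype + Vehicle, had a CORT effect of 0.38 (adjusted p = 0.380).

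**Figure D3:**
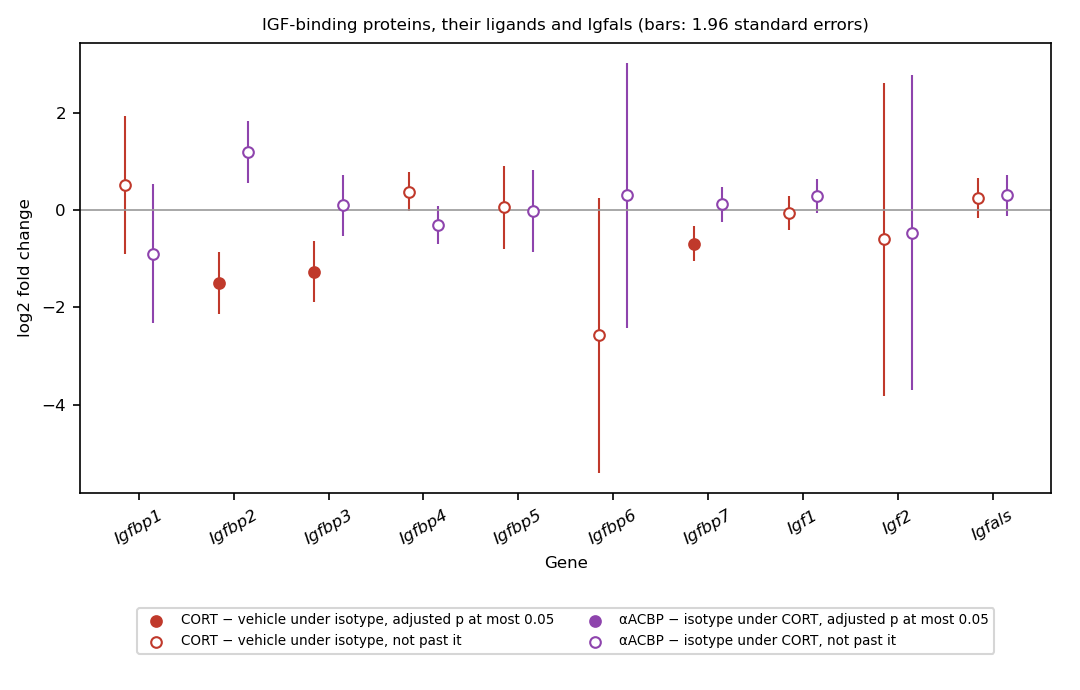
Log2 fold changes (vertical axis) of IGF-binding proteins, their ligands and Igfals for both CORT under isotype and αACBP under CORT, bars for 95% intervals. Filled points passed an adjusted p of 0.05: Igfbp2 (-1.50), Igfbp3 (-1.27) and Igfbp7 (-0.70), all with CORT.

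Between livers of the same group, Igfbp1 and Trib1 varied together. After each value of log2 CPM was centred on its group mean, Pearson's r over the 20 livers was 0.79 (permutation within groups, p = 0.00046, adjusted over 45 pairs 0.0207) and Spearman's rho 0.74 (p = 0.00171, adjusted 0.0769). Without the 2 livers farthest from the median in Igfbp1, r was 0.68. Isotype + CORT shows it most widely, since replicates 1 and 5 were highest in both genes and replicate 3 lowest in both. Irs2 and Igfbp1 had r = 0.63 (permutation p = 0.00506, adjusted 0.114) and rho = 0.64 (adjusted 0.218), with r = 0.57 without the 2 farthest livers, so that this pair did not pass the correction.

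**Figure D4:**
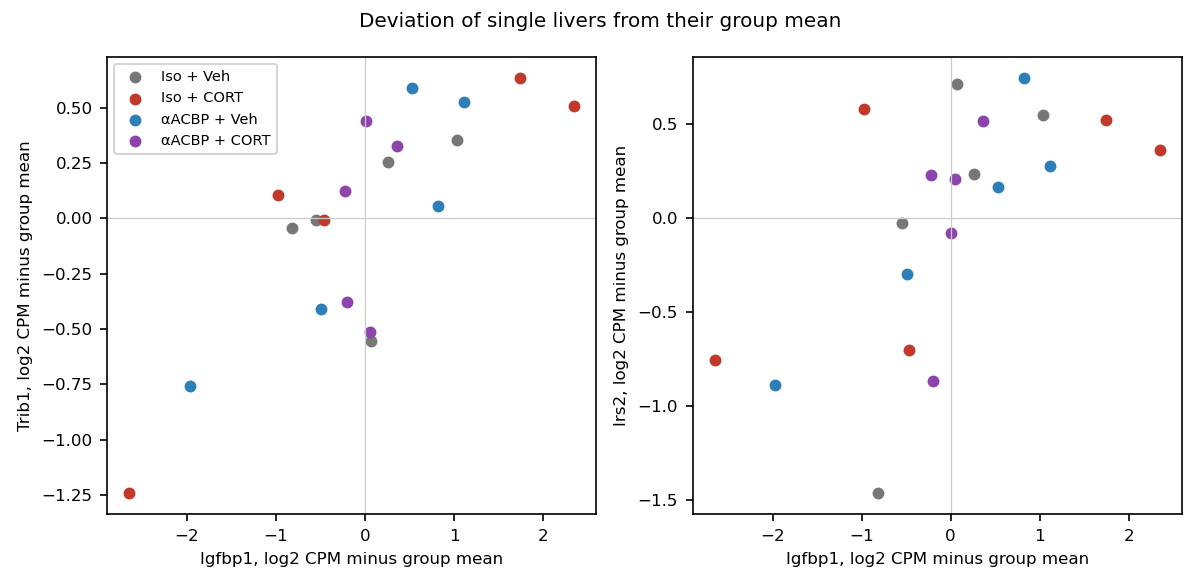
Deviation of each of 20 livers from its group mean in log2 CPM, Igfbp1 (horizontal) against Trib1 (left, vertical) and Irs2 (right, vertical), coloured by group. Livers high in Igfbp1 are high in Trib1 (r = 0.79), and the Isotype + CORT livers span the widest range.

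Over all 45 pairs, 1 passed the correction by Pearson's r and 0 by Spearman's rho, 5 had an unadjusted permutation p of 0.05 or less and 23 had a positive r, with a median of 0.06. The value of Insr farthest from 0 was -0.40, with Pik3r1. Igfbp2, the member called with CORT, had r = 0.10 with Igfbp1 and -0.02 with Trib1, and its largest within-group values were with Pik3r1 (r = -0.49, permutation p = 0.0618) and Foxo1 (r = -0.47, permutation p = 0.0513).

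**Figure D5:**
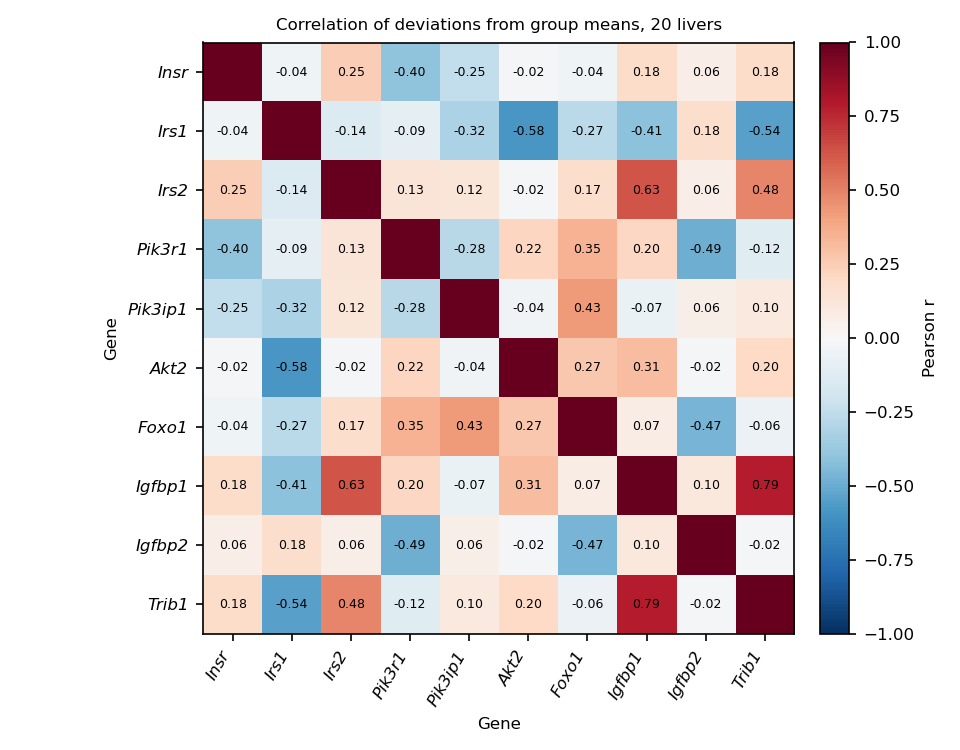
Pearson's r between the 10 genes (both axes) over 20 livers after centring on group means, from -1 (blue) to 1 (red). Igfbp1 and Trib1 have the highest value (0.79) and Irs1 and Akt2 the lowest (-0.58).

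As a description, the genes most like each member over the 20 livers, group differences included, were sought among 12059 genes. Igfbp2 was most like Fetub (r = 0.86) and Apoa1 (0.84), which encode secreted liver proteins, and Trib1 most like the immediate-early gene Fos (0.81) and the clock-linked repressor Bhlhe40 (0.78). Igfbp1 was most like Nol11 and Junos (0.79 each). Pik3r1 was most like Lrrc28 (0.85) and Hlf (0.82), the latter a clock-output transcription factor that was itself called higher with CORT under isotype (1.21). Pik3ip1 was most like Ptpre (0.84), Irs1 Ssfa2 (0.77), Irs2 C1qtnf1 (0.76), Foxo1 Rad54l2 (0.76), Insr Hnrnpdl (0.75) and Akt2 Mgmt (0.72). These values share libraries and depth and carry no test.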

How the data were processed

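Liver RNA of 20 mice was sequenced, and the authors deposited 1 table of raw read pair counts, with a row per gene and a column per liver. The submitters' notes name HISAT2, HTSeq and the build mm10, whereas the study's methods name GRCm39. The annotation release and strand setting are not given in the sources used here. All columns were mapped to mice by name (0 left over), and lines for read pairs on no gene (59.6% to 63.4% of all) were left out.

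Counts were fitted with edgeR 4.0.16 in R 4.3.3 (filterByExpr, TMM, robust quasi-likelihood fit, 1 model of 4 groups), and p-values were adjusted by Benjamini-Hochberg over 16071 genes. A gene was called at an adjusted p of 0.05 or less. A standard error is the log2 fold change divided by the square root of F, and an interval is 1.96 standard errors each way. Log2 CPM used a prior count of 2. Permutation tests (scipy 1.17.1) were exact for 5 against 5 livers, and used 100000 resamples for correlations. Exon lengths and strand overlaps came from GENCODE M39, whose identifiers matched 91.4% of the table's without version, and positions and promoters from RefSeq on GRCm38.p6.

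All 10 members were named, and of each list at most 5 called genes by adjusted p. Members and lists were chosen with earlier results of these data known. Alternatives used DESeq2 1.42.0, voom of limma 3.58.1, other filters, scalings, call rules and covariates, and each liver left out. Voom was run with quality weights, from 0.236 (αACBP + Vehicle replicate 5) to 2.55 (Isotype + Vehicle replicate 2). The programs were tested on simulated data, with 50 genes changed at each of several sizes in Isotype + CORT. The test of CORT under isotype called 2% of them at a true log2 fold change of 0.5, 34% at 1, 52% at 1.5 and 86% at 3. Of all calls there, 5.43% were false. The changed genes were few among the 15441 tested there and were not matched to the members. These shares need not hold for the members in the real data. A member that was not called may still have changed.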

Additional observations from a re-analysis of the deposited data

Results flagged for a closer look

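In 3 of 40 sets of 5 livers (10 genes in 4 groups), 1 liver stood far from the other 4 by Dixon's 95% criterion, where chance gives about 1 in 20 sets, or 2 of 40. All 3 were αACBP + CORT replicate 3. It was the highest of its group in Insr, at 144.8 CPM with the nearest liver at 117 CPM, and in Foxo1, at 37.7 CPM with the nearest at 23.2 CPM. It was the lowest in Igfbp2, at 194 CPM with the nearest at 407 CPM. Its normalization factor (1.04) and its median correlation with its group (0.938) lay within the range of the other livers, and the cause of these values was not tested.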

How the results depend on the processing

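Igfbp2 stayed called lower for CORT under isotype in all 9 other fits (-1.53 to -1.46 on the log2 scale, adjusted p between 6.99e-05 and 0.0329) and with each of 20 livers left out. The number of members called moved in few cases. Leaving out a liver gave between 1 and 2 members for CORT under isotype (2 without Isotype + CORT replicate 3) and between 0 and 1 for the antibody under CORT (1 without Isotype + Vehicle replicate 3). DESeq2's Wald test, voom, and an unadjusted p with a log2 fold change limit of 1 each gave 1 member for the antibody under CORT, and that last rule gave 3 for the interaction. Without centring on group means, 2 pairs of members passed the correction for correlation, Pik3r1 with Igfbp2 and Igfbp1 with Trib1.

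The replicate numbers in the labels belong to different mice, and same-numbered livers did not deviate together (30 correlations between -0.1 and 0.097). With the number as a replicate block, the members called were 1 for CORT under isotype and 0 in the other 5 comparisons, and no call of a member changed. Among the listed genes, the block ended the calls of Igfbp3 (CORT under isotype), Bnip3 (antibody under CORT), Tsc2 and Sod2 (antibody under vehicle) and Acly (both treatments). Over all genes it gave 421 calls in place of 514 for CORT under isotype, 121 in place of 154 for the antibody under CORT and 567 in place of 826 for the antibody under vehicle.

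Of 1844 values under other settings, 102 changed sign, 69 of them with a liver left out, and none of these had been called. Voom gave Igfbp1 -0.75 for CORT under isotype, 0.42 for the antibody under CORT, 0.23 for CORT under the antibody, -0.56 for the antibody under vehicle and 0.98 for the interaction. Other changes with voom were for the antibody under vehicle, -0.024 for Insr, -0.029 for Pik3r1, -0.16 for Pik3ip1 and 0.023 for Igfbp2, and 0.00076 for Irs2 in αACBP + CORT against Isotype + Vehicle. The clock index as a covariate gave Akt2 0.038 (antibody under CORT), 0.12 (CORT under the antibody), -0.20 (antibody under vehicle) and 0.24 (interaction), and Irs1 -0.079 (CORT under the antibody) and 0.13 (antibody under vehicle). With it, the antibody under vehicle was -0.094 for Pik3r1, -0.30 for Pik3ip1, -0.027 for Igfbp1 and 0.13 for Igfbp2, and the interaction of Foxo1 was 0.15. The replicate block gave Pik3ip1 -0.40 (antibody under CORT), -0.24 (antibody under vehicle) and -0.16 (interaction), Igfbp1 -0.12 (antibody under vehicle) and Irs2 0.15 (both treatments). For Pik3ip1 DESeq2's size factors gave -0.0011 (antibody under CORT) and -0.010 (interaction), and its Wald test -0.0013 and -0.010. Library sizes without the 20 most abundant genes gave Pik3r1 -0.00076 and Pik3ip1 -0.0036 (antibody under vehicle), and no filter on low counts gave Foxo1 0.0037 (interaction). The cause of these changes was not tested.

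With a liver left out, log2 fold changes that crossed 0 spanned the following ranges. For CORT under isotype, -0.19 to 0.028 for Akt2 and -0.25 to 0.84 for Igfbp1. For the antibody under CORT, -0.51 to 0.31 for Pik3ip1, -0.12 to 0.093 for Akt2 and -0.23 to 0.026 for Foxo1. For CORT under the antibody, -0.015 to 0.14 for Pik3r1 and -0.021 to 0.24 for Foxo1. For the antibody under vehicle, -0.050 to 0.11 for Insr, -0.11 to 0.18 for Pik3r1, -0.35 to 0.33 for Pik3ip1, -0.020 to 0.071 for Akt2, -0.11 to 0.033 for Foxo1, -0.13 to 0.50 for Igfbp1 and -0.29 to 0.23 for Igfbp2. For both treatments against Isotype + Vehicle, -0.14 to 0.0062 for Insr, -0.17 to 0.23 for Irs1, -0.23 to 0.17 for Irs2, -0.047 to 0.24 for Pik3r1 and -0.053 to 0.19 for Foxo1. For the interaction, -0.52 to 0.36 for Pik3ip1, -0.14 to 0.070 for Akt2 and -0.20 to 0.065 for Foxo1.

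Counts of all genes called also depended on the settings. With all livers kept, 514 genes for CORT under isotype became between 312 (fold limit) and 949 (DESeq2's Wald test), 154 for the antibody under CORT between 28 (only the groups compared) and 520 (unadjusted p and fold limit), and 826 for the antibody under vehicle between 0 (clock index) and 1868 (voom). The 49 for CORT under the antibody became between 0 (clock index) and 407 (voom), the 13 for both treatments between 10 (replicate block) and 604 (voom), and the 23 for the interaction between 0 (clock index) and 791 (unadjusted p and fold limit). With a liver left out, CORT under isotype gave 270 to 650, the lowest being 270, 290 and 321 without Isotype + Vehicle replicates 2, 5 and 4. The antibody under CORT gave 61 to 316, with 69 and 88 without Isotype + CORT replicates 1 and 4, 316 without its replicate 3, and 61, 91 and 71 without αACBP + CORT replicates 3, 4 and 5. The antibody under vehicle gave 183 to 1315, with 195, 268 and 183 without Isotype + Vehicle replicates 1, 2 and 5, 1315 without its replicate 4, and 228 and 309 without αACBP + Vehicle replicates 1 and 5. Both treatments gave 1 or 2 without any 1 Isotype + Vehicle liver, 2 to 4 without αACBP + CORT replicate 1, 2, 3 or 4, and 25, 26 and 31 without αACBP + CORT, Isotype + CORT and αACBP + Vehicle replicate 5. CORT under the antibody gave 5 (without αACBP + Vehicle replicate 3) to 260 (without αACBP + CORT replicate 5), and the interaction 6 to 102 (without αACBP + CORT replicates 3 and 5). Pik3ip1 could not be tested under the filter at 10 counts in every liver, and the interaction could not be fitted with only the groups compared. At 5 livers a group, members with the spread of Igfbp1 or Pik3ip1 leave wide intervals.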
